A study of Mus musculus and Rattus norvegicus with 2 samples.

Results

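The reads described here are the mouse small RNAs that the authors' annotation placed under GenBank sequence records typed snoRNA, in place of the families of the Rfam database that took most other snoRNA reads. They were chosen as every mouse row whose matched entry was a GenBank record of that type, and their reads were counted as listed. The choice gave 2910 distinct sequences with 93871 reads under 77 records, of 914516 sequences and 11760708 reads listed for mouse. The rat list, with 14652889 reads, had 0 rows of that type. The study profiled small RNAs of purified sperm from the caput, the upstream segment of the epididymis, in C57BL/6 mice aged 2 months and in young adult Sprague Dawley rats of 450 g. The growth protocol names no treatment for either, and RNA of 18 to 45 nt was selected for the libraries according to the labels. There was 1 library per species, so a difference between mouse and rat cannot be told apart from a difference between libraries, and no p-value is given. The labels do not say how many animals were pooled. Intervals are exact 95% intervals that cover counting error only, and reads without molecular identifiers are not independent molecules.

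Small nucleolar RNAs are short stable RNAs, mostly cut out of the introns of host genes, that guide the chemical modification of other RNAs, above all ribosomal RNA. The C/D box class carries a C box near its 5′ end (the word TGATGA in DNA letters) and a D box near its 3′ end (CTGA), which come together in the folded RNA, and guides ribose methylation. The H/ACA class guides the conversion of uridine to pseudouridine. Shorter pieces of both classes are known in small RNA libraries from many tissues.

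The sequences that lead the set show what these reads are. Capitals mark the word TGATGA where it ends within 15 bases of the 5′ end and the last CTGA where it lies within 8 bases of the 3′ end. Both words were searched on the read strand only, and they can overlap (CTGATGA). The first group holds the most abundant long forms of the leading snoRNAs, named by their annotated gene or, for AJ003045, by the record, with the length in the name.
Gm22744, 62 nt: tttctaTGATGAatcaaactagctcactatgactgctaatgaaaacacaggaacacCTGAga
Snord95, 64 nt: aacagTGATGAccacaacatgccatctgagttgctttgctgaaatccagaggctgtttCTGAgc
Snord50, 70 nt: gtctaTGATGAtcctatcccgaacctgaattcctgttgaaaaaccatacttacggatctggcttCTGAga
Gm25789, 67 nt: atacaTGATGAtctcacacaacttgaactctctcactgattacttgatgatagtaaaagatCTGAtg
Gm22680, 66 nt: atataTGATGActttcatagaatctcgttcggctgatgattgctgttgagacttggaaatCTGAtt
Snord96a, 73 nt: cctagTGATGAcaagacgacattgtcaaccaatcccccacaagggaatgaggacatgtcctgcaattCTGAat
AJ003045, 64 nt: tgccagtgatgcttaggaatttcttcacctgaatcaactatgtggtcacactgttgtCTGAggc
Gm22574, 57 nt: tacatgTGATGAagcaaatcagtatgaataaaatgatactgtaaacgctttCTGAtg
The second group holds shorter forms of the same RNAs, and of the H/ACA snoRNA Snora81, that the comparisons below turn on.
Gm22744, 38 nt: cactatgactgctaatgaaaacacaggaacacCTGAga
Gm22680, 53 nt: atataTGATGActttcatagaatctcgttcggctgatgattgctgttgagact
Gm22680, 39 nt: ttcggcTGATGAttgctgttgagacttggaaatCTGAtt
Snord50, 30 nt: gtctaTGATGAtcctatcccgaacCTGAat
Snord50, 22 nt: attacggatctggcttCTGAga
Snord95, 34 nt: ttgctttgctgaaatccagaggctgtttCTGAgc
Snora81, 23 nt: tcataagattcggtgcaataagt

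In 7 of the 8 long forms the word TGATGA began at base 6 or 7 and CTGA was followed by 2 bases. The exception was AJ003045, which had tgatgc at the C box position and 3 bases after CTGA. Over all members, 99.1% of reads carried TGATGA or CTGA anywhere, against 45.5% of all listed mouse reads and 13.4% of those outside snoRNA entries. A longer read is more likely to hold such a word. Among reads of 60 nt or longer the shares were 99.99% of the members and 81.6% of those outside snoRNA entries. What part of the latter share is due to length was not tested. Among members of 60 nt or longer, 96.0% (95.9 to 96.2) had TGATGA near the 5′ end together with CTGA near the 3′ end. Among members under 60 nt that share was 12.8% (12.4 to 13.2), with CTGA near the 3′ end in 64.1% and TGATGA near the 5′ end in 44.3%. In a short read such a word need not be the C or D box of the RNA. The 30-nt Snord50 form ends at position 31 of the annotated RNA, while the long form ends at 71. The 39-nt Gm22680 form begins at position 28, while the long form begins at 1. The CTGA marked in the former and the TGATGA marked in the latter thus lie inside the RNA. The same pair of words stood at the ends of 93.9% of reads of 60 nt or longer under Rfam snoRNA families other than SNORD58. Of reads of 60 nt or longer outside snoRNA entries, 48.9% had the pair at their ends. TGATGA near the 5′ end was in 49.5% of these and in 0.372% of shorter reads outside snoRNA entries. Reads outside snoRNA entries are not free of snoRNA sequence. For example, 1441 reads matched to the snoRNA Gm25789 stood under GenBank records of unknown type. How far such reads raised the shares outside snoRNA entries was not tested.

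The members made up 0.798% of listed mouse reads (0.793 to 0.803). The mouse total was dominated by Rfam family SNORD58, a C/D box snoRNA with 4021449 reads that is not among the members, so shares of the total were kept low by it. The members were 2.14% of all mouse snoRNA reads and 25.5% (25.4 to 25.7) of those without SNORD58. The other 155 Rfam snoRNA families together held 273851 reads. As a check of the labelled tissue, reads inside the transcripts of the sperm and spermatid genes Prm1, Prm2, Tnp1, Tnp2, Odf1 and Smcp were counted, and came to 31.5 reads per 1000000 listed reads (rpm) in sum, between 0.765 and 14.6 per gene, with none at 0. The caput epithelium genes Adam7, Lcn5, Lcn8, Lcn9, Ros1 and Crisp1 came to 1746 rpm in sum, between 37.8 and 1174 per gene. The part of epithelial RNA in the snoRNA counts was not tested, and in a bulk library fewer cells of a type and less RNA per cell cannot be told apart.

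The reads were concentrated in few records. Of the 77 records, 49 had at least 10 reads, 26 at least 100 and 11 at least 1000, and the 10 leading records held 93.1% (92.9 to 93.2). Record AK036616 alone had 31815 reads, 33.9% of the members. It was followed by AK051045 with 16945 reads, NR_028564 (Snord95) with 13066, AB116375 with 8699 and FM991906 with 7153. The next were AJ003045 with 2490, AB116374 with 2154, NR_028563 (Snord96a) with 2128, U40654 with 1601 and FM991910 with 1315 reads.

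**Figure D1:**
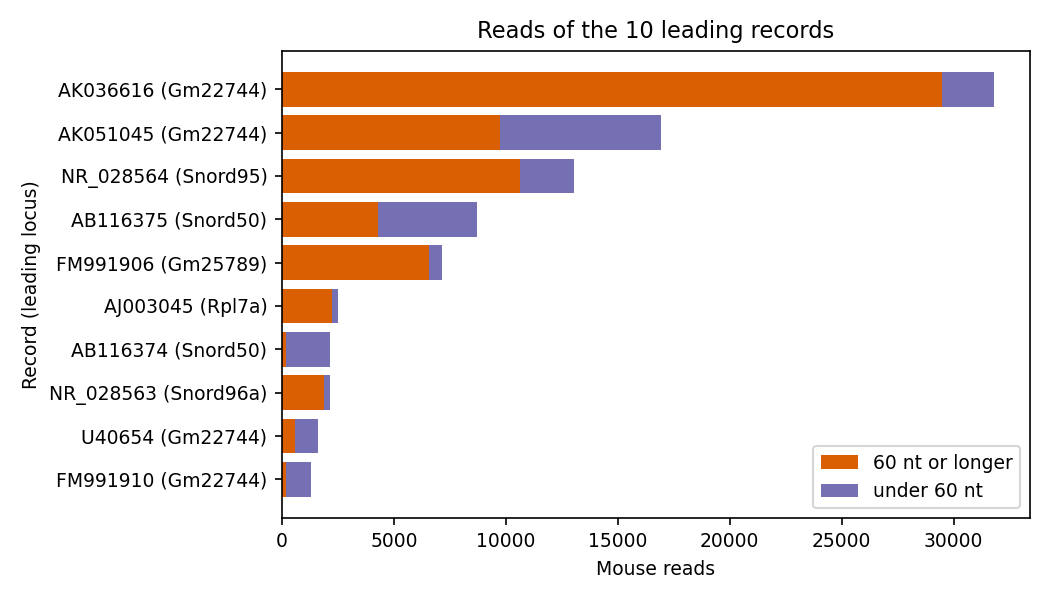
Mouse reads of the 10 leading records, with the leading snoRNA in parentheses, split into reads of 60 nt or longer (orange) and shorter reads (purple). AK036616 stands far above the rest with 31815 reads, and the share of long reads runs from 8.87% in AB116374 to 92.7% in AK036616.

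Most of the members were longer than the selected fraction. Reads of 60 nt or longer numbered 65933, 70.2% (69.9 to 70.5), and 79.4% were longer than 45 nt, the upper bound the labels give. Reads of 18 to 30 nt were 6.31%, those of 31 to 45 nt 14.3% and those of 46 to 59 nt 9.12%. The lengths stood in narrow peaks, with 30059 reads at 62 nt, 10497 at 64 nt, 8680 at 61 nt, 6453 at 67 nt, 3817 at 53 nt and 3184 at 70 nt. The limit of 60 nt fell into a gap between peaks. There were 805 reads of 57 nt, 50 of 58 nt, 33 of 59 nt and 53 of 60 nt, before the 8680 of 61 nt.

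The share of long reads was lower in the library as a whole, and nearer to that of the members in other snoRNA families. The share of 60 nt or longer was 3.86% of all listed mouse reads, 2.58% of those outside snoRNA entries and 1.32% of SNORD58 reads, whose most common length was 40 nt. Rfam snoRNA families other than SNORD58 had 52.8% (52.7 to 53.0), with 144711 reads of 60 nt or longer. The members' 70.2% was 54.7% without the snoRNA Gm22744 and 41.3% without their 3 most abundant sequences, both computed after seeing the data. Those sequences were 62, 64 and 61 nt long, so taking them out had to lower the share. The other families, with a peak of their own of 50056 reads at 65 nt, were not trimmed in the same way. What the difference between the sets rests on was therefore not tested. The members were 0.798% of the listed mouse reads and 14.5% of those of 60 nt or longer. In rat, 0.445% of all listed reads and 11.7% of reads under Rfam snoRNA families reached 60 nt. Long reads were thus scarcer in the rat library as a whole, and that holds beside each mouse to rat comparison of long forms given here.

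**Figure D2:**
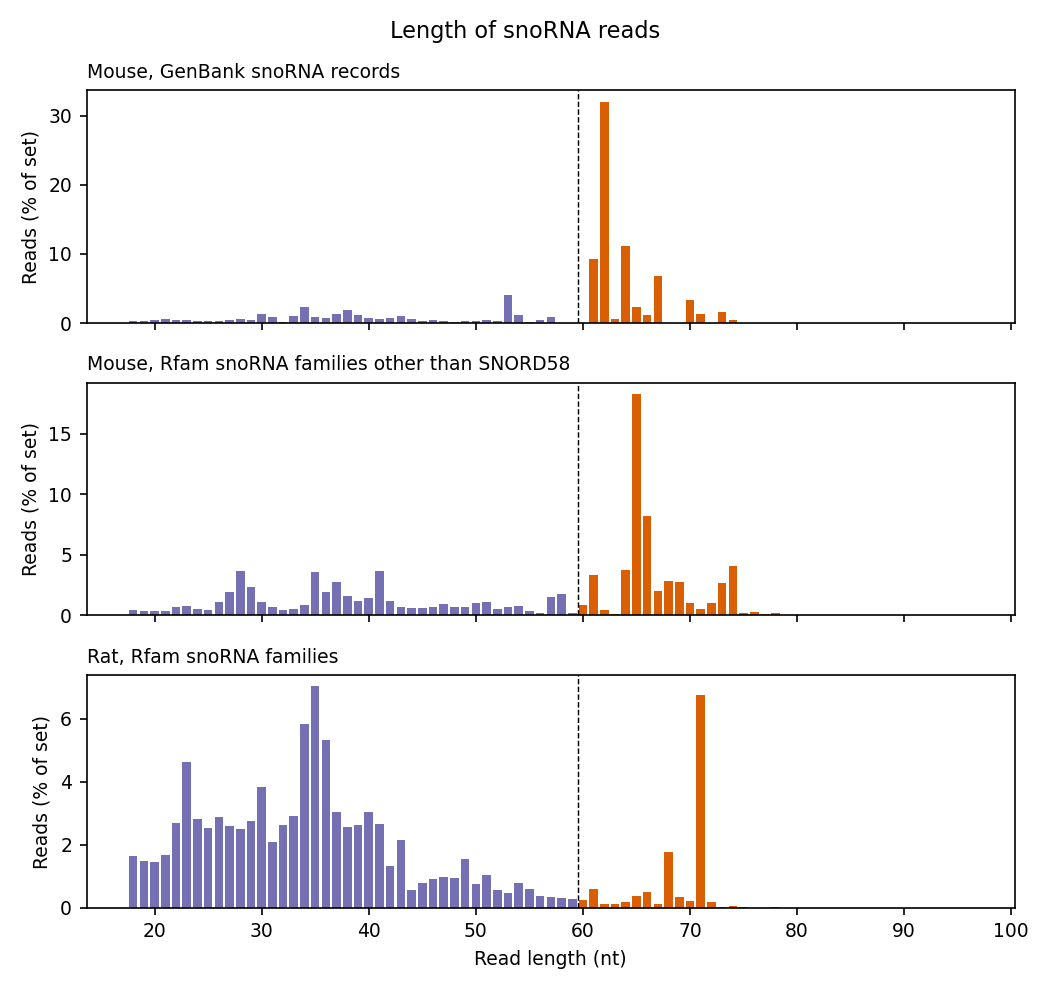
Percent of reads at each read length in nt for the GenBank snoRNA records in mouse, the Rfam snoRNA families other than SNORD58 in mouse and the Rfam snoRNA families in rat, with reads of 60 nt or longer in orange and a dashed line at the limit. The members peak at 62 nt, the other mouse families are spread over both sides of the limit, and the rat reads lie mostly below it apart from a peak at 71 nt.

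The records differed widely among themselves in length. The 3 records of at least 100 reads with the highest shares of 60 nt or longer were AK036616 with 92.7% (92.4 to 93.0), FM991906 with 92.0% (91.4 to 92.6) and AJ003045 with 89.3% (88.0 to 90.5). Snord96a had 87.3%, Snord95 81.5%, AK051045 57.5%, AB116375 49.1%, U40654 36.7%, FM991910 14.8% and AB116374 8.87%. Record AF357376, eleventh with 1235 reads, had 0 reads of 60 nt or longer, which allows a share of up to 0.298%. Record AJ240057, with 874 reads, also had 0, and its leading sequence was the 57-nt Gm22574 form printed above, which carries both box words.

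A record is not the same as a snoRNA. Several records held the same RNA, and some held more than 1, so reads were also assigned to annotated snoRNA genes by shared words of 18 nt. This grouping was chosen after the records had been seen. A GENCODE short RNA was found for 95.7% of the reads. The annotation is of build GRCm38, while the submitters' processing notes name mm9 and rn5, so positions below come from the match to GENCODE transcripts and not from the deposited lists.

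Nearly all reads came from C/D box snoRNAs of a handful of host genes. The snoRNA Gm22744 collected 44612 reads from 4 records (AK036616, AK051045, FM991910 and U40654), 47.5% of the members. Gm22744 lies at chr19:8725092-8725156 on the plus strand, within Snhg1, a noncoding gene whose introns hold a series of C/D box snoRNAs. All of its 44612 reads stood under GenBank snoRNA records, and none under an Rfam family. Of them, 87.3% were 60 nt or longer. The 62-nt form had 29214 reads, 31.1% of all members, and a 61-nt form lacking the first base had 8416.

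The Gm22744 reads that lie in the annotated RNA without a mismatch had a fixed 3′ end and a variable 5′ end. Position 62 was the last base in 98.3% of 43535 reads, and position 1 the first base in 68.3%. Reads with both ends within 1 base of the ends of the long form made up 87.2%. Another 12.1% shared only its 3′ end, 0.586% only its 5′ end and 0.0643% neither. The common short forms were therefore 3′ pieces, led by the 38-nt form with 1230 reads and a 37-nt form with 956.

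Snord95, within an intron-retaining transcript of Rack1, which encodes a protein of the small ribosomal subunit, was next with 13062 reads. It lies at chr11:48803139-48803206 on the plus strand, and its reads cannot be fully separated from those of the near-identical copy Gm25296. The 64-nt form had 8686 reads and a 65-nt form with a further base at the 5′ end 1573. Over the 11608 reads of every entry that match Snord95 itself, 88.8% reached both ends, 9.31% only the 3′ end and 1.39% only the 5′ end. These shares leave out reads that match only Gm25296. Without a mismatch, 12695 member reads lay in either copy. Of these, 2184 were under 60 nt and ended within 1 base of the common 3′ end, and 156 under 60 nt began within 1 base of the common 5′ end. As in Gm22744, short pieces kept the 3′ end more often than the 5′ end.

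The Snord50 copies held 11334 reads from 4 records. Snord50a lies at chr9:88521529-88521600 on the minus strand within Snhg5, another noncoding snoRNA host gene, and its reads are shared with Snord50b, Gm23017, Gm24463 and Gm26135, between which they are uncertain. Here the long forms were fewer than the pieces, with 39.3% (38.4 to 40.2) of reads at 60 nt or longer. The 70-nt form printed above had 1588 reads. It is listed with a mismatch to its record and lies without one in Snord50a and Gm24463. A second 70-nt sequence that matches the record had 1418.

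Pieces of Snord50 came from both ends. Of 10865 reads, 39.5% reached both ends, 37.6% only the 5′ end, 21.9% only the 3′ end and 1.04% neither. The leading 5′ piece was the 30-nt form with 762 reads, followed by a 43-nt form with 665. The leading 3′ piece was 21 nt long and had 352 reads. In contrast to Gm22744 and Snord95, 5′ pieces outnumbered 3′ pieces.

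Gm25789 lies at chr1:161038308-161038383 on the plus strand within Gas5, a noncoding host gene of C/D box snoRNAs. Its record FM991906 had 7153 reads, of which 6265 were the 67-nt form. In this record each read without a mismatch began at the same base. A further 1441 reads sharing words with it stood under GenBank records of unknown type and 351 under Rfam SNORD81, so the 5′ ends seen in this record alone are not those of all its reads. Over the 8703 reads of every entry, 79.4% reached both ends, 16.8% only the 5′ end and 3.48% only the 3′ end. Counting every entry lowered its share of 60 nt or longer from 92.0% to 82.1%.

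Gm22680, also within Snhg1 at chr19:8725341-8725409 on the plus strand, gave the most common form among the members that stopped inside a snoRNA. It had 6920 reads from the records AK051045 and U40654, and 15.1% (14.25 to 15.95) were 60 nt or longer. The 53-nt form had 3438 reads and a 54-nt form with a further base at the 5′ end 972, while the 66-nt form that reaches the CTGA near the 3′ end had 898. The 53-nt form ends before that CTGA. The 39-nt form, with 415 reads, began near the middle of the RNA and carried the D box.

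Of the 5654 Gm22680 reads inside the annotation, 62.1% reached only the 5′ end, 19.0% only the 3′ end and 15.95% both. Reads that began a base before the annotated start were not placed. The peak of 3817 members at 53 nt was thus mostly this RNA. Gm22744 and Gm22680 lie in the same host gene and share record AK051045, yet 87.3% of the reads of the first and 15.1% of those of the second reached 60 nt.

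The gene Rack1 holds a second member, Snord96a, at chr11:48802032-48802112 on the plus strand, with 2128 reads and 1423 of the 73-nt form. A further 956 of its reads stood under Rfam SNORD96, and these were mostly 3′ pieces. Over the 3006 reads of every entry, 59.8% reached both ends, 30.8% only the 3′ end and 9.05% only the 5′ end. AJ003045 matched a transcript of Rpl7a, a ribosomal protein gene, at chr2:26912849-26912912 on the plus strand, with 1452 reads of the 64-nt form. Gm22574, at chr13:86044989-86045048 on the minus strand within Cox7c, a gene of the respiratory chain, had 874 reads, and 94.4% of the 862 without a mismatch reached both ends of its 57-nt form within 1 base.

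**Figure D3:**
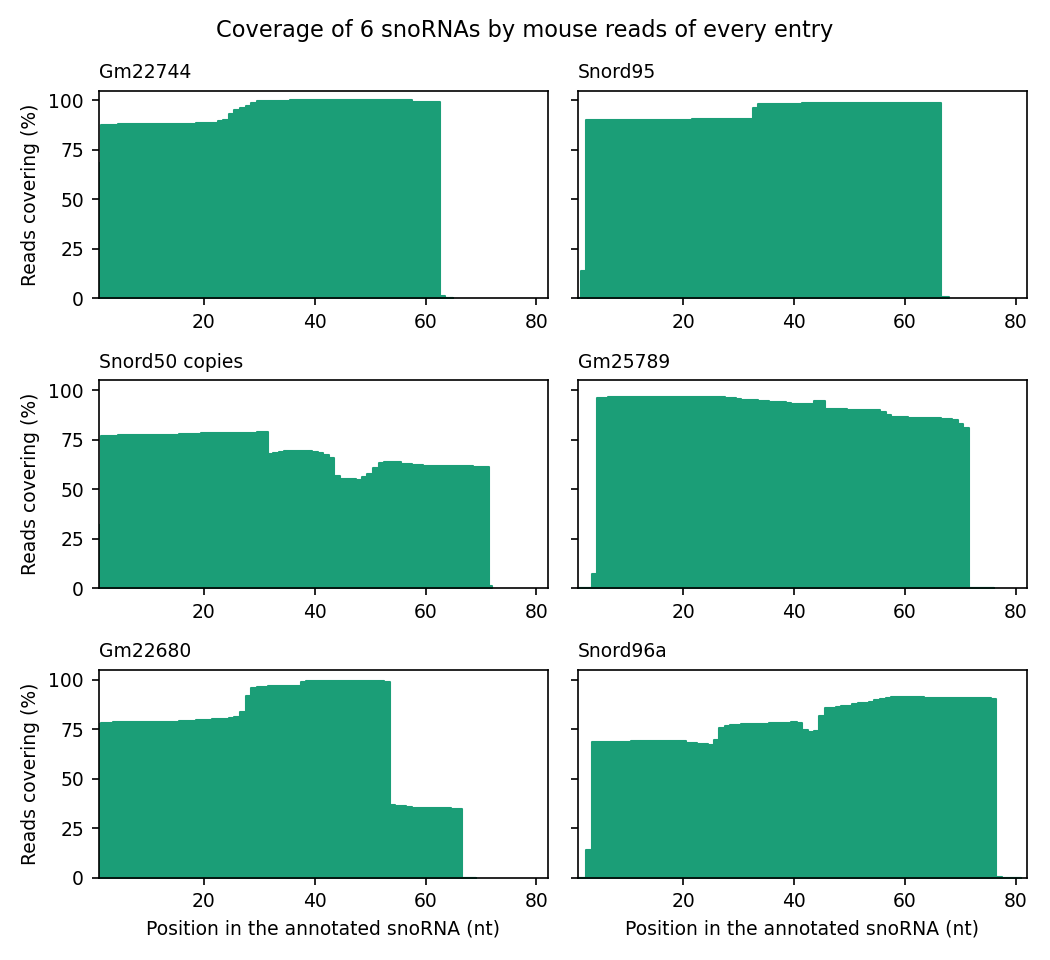
Percent of the mismatch-free reads of every mouse entry that cover each position of 6 annotated snoRNAs, counted in nt from the annotated 5′ end. Coverage is nearly flat to the 3′ end in Gm22744 and Snord95, dips in the middle of the Snord50 copies and drops after position 53 in Gm22680.

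Counts depend on the length of the RNA, so the order was also taken per base of the annotated snoRNA. Gm22744 had 686 reads per base, Snord95 192, the Snord50 copies 157, Gm22680 100.3, Gm25789 94.1 and Snord96a 26.3. Per base of member reads Gm22680 stood above Gm25789, but with the reads of every entry Gm25789 had 117.7 per base and Gm22680 100.4, which is their order by reads.

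Below these leaders the members were mostly short. Snord16a, within Rpl4, had 658 reads, of which 1.22% were 60 nt or longer, led by a 30-nt 3′ piece with 174. Snord43, within Rpl3, had 342 reads, 0 of them at 60 nt or longer, led by a 28-nt 3′ piece with 108. For some RNAs the GenBank snoRNA records held only a small part of the reads. Of 1229 reads that lie in Snord68 without a mismatch, 94 were members. Of 2512 sharing words with Gm23969, in Rpl7a, 138 were members and 2374 stood under Rfam SNORD24. Counts of a record therefore understate these RNAs, whereas Gm22744 and the Snord50 copies had all their reads among the members.

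By name, 48 of the 77 records matched a RefSeq gene. Names of C/D box snoRNAs covered 28 records with 17502 reads, of which 12533, or 71.6%, were 60 nt or longer. Nearly all of these long reads were from Snord95, with 10647, and Snord96a, with 1857. The share is thus that of these records and not of the named class. H/ACA names covered 12 records with 233 reads, 0.248% of the members, and 1 of those reads was 60 nt or longer. Names of small Cajal body RNAs, which guide the modification of spliceosomal RNAs, covered 3 records with 64 reads, none of them at 60 nt or longer. The other 34 records had no such name and held 76072 reads, 81.0% of the members. The imprinted snoRNA genes AF357426, DQ267100 and DQ267102 had 5, 9 and 3 reads, and 12 of these 17 reads were 60 nt or longer.

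The member sequences were then sought in the rat list, whatever entry they had there. Of the 2910 sequences, 161 were present letter for letter, holding 15615 reads or 16.6% (16.4 to 16.9) of the members. They had 5507 reads in rat, which is 1328 rpm in mouse against 376 rpm in rat, a log2 ratio of 1.82 (1.78 to 1.87). Of the 161, 33 were 60 nt or longer with 1427 rat reads, and 128 were shorter with 4080 rat reads. In the rat list 50 of them, with 2975 reads, stood under Rfam snoRNA families, 88 with 2296 reads under GenBank snRNA records and 19 with 231 reads under GenBank mRNA records. Thus 54.0% of these rat reads kept a snoRNA entry, from Rfam in place of GenBank, while 41.7% were typed snRNA and 4.19% mRNA.

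For scale, 5276 sequences had at least 100 reads over both libraries and were listed in both. A level at least 2-fold higher in mouse was found for 27.2% of them, and at least 2-fold higher in rat for 51.1%. Their median log2 ratio of mouse to rat was -1.10. Among the 22 members in that group, 14 were at least 2-fold higher in mouse and 5 in rat, with a median of 1.40. These 22 share only a few snoRNAs and are not independent, 20 of them were shorter than 60 nt, and members had to be listed in both libraries to be counted.

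Among identical sequences the 64-nt form of Snord95 had the most rat reads, 1364, or 93.1 rpm against 739 rpm in mouse. Its log2 ratio was 2.99 (2.91 to 3.07). The 65-nt form with a further base at the 5′ end had 1573 reads in mouse and 8 in rat, a log2 ratio of 7.94 (6.95 to 9.15). A 65-nt form with a further base at the 3′ end had 10 and 8 reads, a log2 ratio of 0.64 (-0.85 to 2.18). The 34-nt 3′ piece of Snord95 printed above had 51.8 rpm in mouse and 29.3 rpm in rat, a log2 ratio of 0.82 (0.642 to 1.004). Another 34-nt piece, listed with a mismatch to the record, had 583 reads in mouse and 5 in rat, a log2 ratio of 7.18 (5.95 to 8.81). It does not lie in Snord95 without a mismatch and may lie in the copy Gm25296. Its placement at positions 32 to 65 is then on another sequence than that of the first piece at 33 to 66. In either copy 2184 reads under 60 nt kept the common 3′ end, while in Snord95 itself 1081 reads reached only that end. Part of the 3′ pieces thus match only Gm25296. Neither the long forms nor the 3′ pieces counted under Snord95 and its copy thus shared a ratio, and which copy gave each piece was not tested. The 23-nt form of Snora81 had the second most rat reads and went the other way, with 940 reads (64.2 rpm) in rat and 13 reads (1.11 rpm) in mouse, a log2 ratio of -5.86 (-6.77 to -5.08). A 24-nt form of Snora81 with a further base at the 5′ end differed less, with 117 reads in rat and 32 in mouse, a log2 ratio of -1.55 (-2.17 to -0.978). The 22-nt piece of Snord50 had 451 reads in rat and 134 in mouse, a log2 ratio of -1.43 (-1.72 to -1.15). Of the other pieces with the same 3′ end, the 23-nt piece was also higher in rat (log2 ratio -1.02, -1.34 to -0.714) and the 19-nt piece did not differ beyond counting error (log2 ratio -0.073, -0.392 to 0.243). The 21- and 20-nt pieces were higher in mouse, with 352 mouse and 216 rat reads at 21 nt (log2 ratio 1.02, 0.773 to 1.27) and 293 and 143 at 20 nt (log2 ratio 1.35, 1.06 to 1.65).

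The leading forms of Gm22744, Snord50, Gm25789, Gm22680, Snord96a and AJ003045 were not listed in rat at all. With 3 reads taken as the most that a count of 0 allows per library, the 62-nt form of Gm22744 was at least 12133-fold higher in mouse. This is a statement on the letters of the sequence, since a rat RNA that differs by a base is not counted as the same.

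To count such RNAs, reads of any entry in either library that share 18 nt with the annotated mouse sequence of each snoRNA were summed. For AJ003045 and AF357376, which had no annotated short RNA, the most abundant member sequence was used. Mouse reads are found along the whole mouse sequence, but rat reads only in stretches conserved between the species. Rat levels can therefore be understated, and the ratios lean toward mouse. The search was chosen after the exact search had been seen. Gm22744 had 3793 rpm in mouse and 3.41 rpm in rat, a log2 ratio of 10.12 (9.72 to 10.55). Its 50 rat reads were all under Rfam SNORD29 and reached at most 51 nt, against 87.3% of mouse reads at 60 nt or longer. The whole rat family SNORD29 had 114 reads, 7.78 rpm, and also 0 reads of 60 nt or longer.

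Snord95 had many long reads in both libraries. It had 1111 rpm in mouse and 164 rpm in rat, a log2 ratio of 2.76 (2.70 to 2.83), and 61.7% (59.7 to 63.7) of the rat reads were 60 nt or longer, with 64 nt the most common length. Of the 2398 rat reads, 2394 stood under GenBank snRNA records. Gm22574 had 74.3 rpm in mouse and 21.1 rpm in rat, a log2 ratio of 1.82 (1.63 to 2.01), and its rat reads peaked at 56 nt.

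The Snord50 copies differed between the libraries in length as well as in level. They had 964 rpm in mouse and 104.1 rpm in rat, a log2 ratio of 3.21 (3.13 to 3.29). None of the 1525 rat reads was 60 nt or longer, which allows a share of up to 0.242%, against 39.3% in mouse. The longest rat read had 39 nt, and 467 of them had 22 nt. Snord96a had 262 rpm in mouse and 44.4 rpm in rat, a log2 ratio of 2.56 (2.44 to 2.68), with 9.37% of rat reads at 60 nt or longer against 60.3% in mouse over every entry.

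For Gm25789, Gm22680 and Snord16a the rat library had 3 reads, 1 read and 1 read sharing words, none above 19 nt. Such short matches can come from other RNAs, and of the Rfam families that mouse reads of these RNAs fall into, SNORD81 and SNORD30 had 0 rat reads. AJ003045 had 211 rpm in mouse and 6.55 rpm in rat, where its 96 reads stood under Rfam SNORD36.

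The reverse was seen for Snora81 and Snord49b, picked out after their values were known. Snora81, an H/ACA snoRNA within Eif4a2, had 11.2 rpm in mouse and 89.7 rpm in rat, a log2 ratio of -2.999 (-3.27 to -2.74), and 973 of its 1315 rat reads were 23 nt long. Its reads cannot be separated from those of Gm22519. Snord49b had 109 mouse reads over every entry, or 9.27 rpm, and none reached 60 nt. In rat it had 4078 reads, 278 rpm, of which 97.5% were 60 nt or longer and 3942 were 71 nt long. The log2 ratio was -4.91 (-5.20 to -4.63). The difference was smaller for the whole Rfam family SNORD49, with 388 reads (33.0 rpm) in mouse, 7 of them of 60 nt or longer, and 4375 reads (299 rpm) in rat. The rat library thus held long snoRNA reads of Snord49b and Snord95 and none of Gm22744 and Snord50, while 0.445% of its reads in all reached 60 nt.

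**Figure D4:**
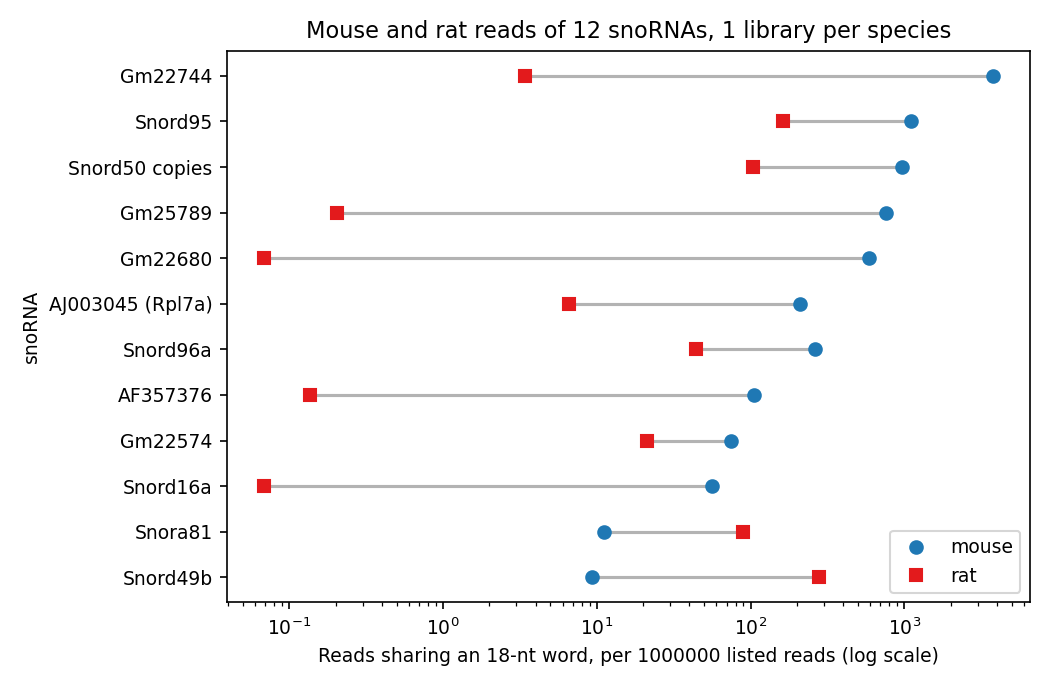
Reads sharing an 18-nt word with 12 member snoRNAs, per 1000000 listed reads on a log scale, in the mouse library (blue circles) and the rat library (red squares). The first 10 are higher in mouse, by 1.82 log2 units for Gm22574 up to 13.08 for Gm22680, and Snora81 and Snord49b are higher in rat. The rat values of Gm22680 and Snord16a rest on 1 read each, that of AF357376 on 2 and that of Gm25789 on 3, none above 19 nt.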

How the data were processed

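Each library was deposited as a list of distinct sequences with read counts, a strand, a matched entry and up to 2 mismatches; the counts are the deposited counts, not normalized, per the file headers, which name miRBase, Rfam and GenBank as the sources of entries. The submitters' processing notes name Bowtie 0.12.7, mm9 and rn5 without their roles. How an entry was chosen when several matched is not given in the sources used here. Minus-strand rows (64 member reads) were turned to the read's orientation, and 93.1% of member reads were listed without a mismatch. Counts were scaled to 1000000 listed reads (11760708 in mouse, 14652889 in rat). Intervals of shares are Clopper-Pearson, and those of ratios exact conditional binomial (scipy 1.17.1). The design has no replicates and no test was made. snoRNA genes and hosts are from GENCODE vM21 and names from RefSeq (GRCm38.p6), where 48 of 77 records matched. Placement of reads was tested on simulated data.

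The named records were the 10 with the most reads and the 3 with the highest share of 60 nt or longer among those of at least 100. The named sequences were the leading ones of the 5 leading records, the 3 most abundant of 60 nt or longer and the 3 with the most rat reads. Other named snoRNAs, the marker genes, the 15 and 8 base windows and the 2-fold comparison were chosen after the values were seen. The members and lists were chosen with earlier results of these data known.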

Additional observations from a re-analysis of the deposited data

How the results depend on the processing

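No paired analysis was possible because there is 1 library per species and no test. The members' share of listed mouse reads, 0.798%, was 1.21% of reads without SNORD58, 2.14% of snoRNA reads, 0.318% of distinct sequences, 0.906% of exact matches and 0.878% over sequences with at least 10 reads. The share of 60 nt or longer, 70.2%, was 78.2% with a limit of 50 nt, 79.4% with 45 nt, 29.2% of distinct sequences, 73.1% over sequences with at least 10 reads, 58.7% without the leading record and 71.0% of exact matches. Alternatives added after seeing the data gave 54.7% without Gm22744 and 41.3% without the 3 most abundant sequences. These 3 are all longer than 60 nt, so taking them out had to lower the share. The share found in rat, 16.6%, was 76.1% where a sequence contained in or containing a rat read counted, 17.3% with at most 1 mismatch, 5.53% of distinct sequences, 17.3% over sequences with at least 10 reads, and, added later, 89.2% by a shared word of 18 nt and 31.7% without Gm22744. The 76.1% and 89.2% count long mouse reads that hold a short rat read. Sequences as printed gave 16.6%. The leading record's share, 33.9%, was 5.26% of distinct sequences, 7.96% without the most abundant sequence of each record, 36.1% of exact matches and, added later, 47.5% by locus. The 77 records were 49 with at least 10 reads and 26 with at least 100. The share with a box word, 99.1%, was 81.1% for the C box alone and 98.1% for the D box alone. C/D records numbered 28 by name and 32 by sequence.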
